A study of Mus musculus with 6 samples.

Results

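Creatine kinases and the genes of creatine supply were followed in hearts of dystrophin- and utrophin-deficient mice that had received setanaxib or its vehicle. The 6 genes were chosen by symbol, for their function, with earlier results of these data known. They are the kinases Ckm, Ckmt2 and Ckb, the synthesis enzymes Gatm and Gamt, and the creatine transporter Slc6a8. All 6 were found among the 50385 genes of the count table, and all 6 passed the filter on low counts that left 20472 genes for testing. The 6 libraries came from hearts of male Mdx/Utrn dKO mice, 2 to 3 months old at the start. In 3 of them the animals had been given setanaxib, which the labels call a Nox4 inhibitor, by gavage at 60 mg/kg/day for 12 weeks, and in the other 3 corn oil for the same time. Both groups carried both mutations and wild-type or untreated hearts are not analysed here, so that the data compare drug with vehicle within the disease model. The background strain and the nature of the alleles are not given in the sources used here, and a whole-gene count does not test either mutation: Dmd was at 108 to 178 and Utrn at 60.8 to 106 CPM (counts relative to the TMM-adjusted library total) over the 6 libraries.

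Creatine kinase moves a phosphate group between ATP and creatine. In heart muscle a mitochondrial form, encoded by Ckmt2, charges creatine where ATP is made, and a cytosolic muscle form, encoded by Ckm, regenerates ATP beside the myosin and calcium pumps that spend it. Ckb encodes the brain-type cytosolic subunit, which is found in many cell types, including smooth muscle and nerve, and is the main subunit in the fetal heart. Heart muscle makes little creatine. It is made mainly in kidney, pancreas and liver from arginine and glycine by Gatm, the first and rate-limiting enzyme, and Gamt, which adds a methyl group from S-adenosylmethionine, and it enters muscle cells through the sodium-coupled transporter Slc6a8.

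The upstream sequences of both cytosolic kinases are shown first, because Ckm and Ckb encode subunits of the same enzyme and took different courses over these libraries. Each is the 250 bases before the RefSeq start site, on the gene's strand, 5′ to 3′, on build GRCm38.p6, which is older than the GRCm39 build named for the count table. The Ckm sequence lies at chr7:19410844-19411093 on the plus strand and the Ckb sequence at chr12:111672339-111672588 on the minus strand. Capitals mark matches, on either strand, to 4 short motifs. The TATA box was searched as TATANA, the CCAAT box by that name, the GC box as the letters GGGCGG and the E-box, bound by muscle regulators of the MyoD family among others, as CANNTG.
Ckm upstream: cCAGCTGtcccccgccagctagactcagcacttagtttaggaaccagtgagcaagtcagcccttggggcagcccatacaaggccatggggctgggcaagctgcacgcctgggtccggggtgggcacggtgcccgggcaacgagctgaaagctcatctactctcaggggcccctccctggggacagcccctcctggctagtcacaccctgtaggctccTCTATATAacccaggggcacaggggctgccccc
Ckb upstream: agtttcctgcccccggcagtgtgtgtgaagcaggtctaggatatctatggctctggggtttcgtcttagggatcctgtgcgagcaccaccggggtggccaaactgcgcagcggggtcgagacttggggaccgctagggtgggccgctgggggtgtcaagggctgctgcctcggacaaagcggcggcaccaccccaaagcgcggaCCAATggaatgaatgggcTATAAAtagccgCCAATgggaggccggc

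Ckm held a TATANA match 31 to 26 bases before its start, overlapped by a match on the other strand at 33 to 28 bases, and 1 E-box near the far end. Ckb held TATANA at 28 to 23 bases and CCAAT at 46 to 42 and at 16 to 12 bases. It held no E-box. A match to the MEF2 element covered its TATANA match. Of the 32851 RefSeq promoters of the same length, 22.6% held TATANA, 33.8% CCAAT, 32.7% a GC box, 66.2% an E-box and 2.92% the MEF2 element. Promoter entries were matched for 5 of the 6 genes. Among the other 3, Ckmt2 held 4 E-boxes, 2 CCAAT matches and 1 GC box. Gamt held 3 GC boxes, and Gatm 2 CCAAT matches and 1 E-box. The oestrogen-related receptor element TCAAGGTCA and the CArG box, held by 0.387% and 1.47% of all promoters, were found in none of the 5. A match describes the letters only.

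The longest stretch of identical coding bases shared by Ckm and Ckb was 20 bases long, starting at coding base 88 of Ckm, where reads were 150 bases long. It is in capitals throughout, as every base is the same in both genes.
Shared Ckm and Ckb coding run: ATGGCCAAGGTGCTGACCCC

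Ckm and Ckmt2 shared at most 17 coding bases. Ckmt2 and Ckmt1, the other mitochondrial kinase, shared 39. Ckb has a run of 250 bases in common with the annotated copy Gm12892, which is not analysed here, so its count may hold reads of that copy. Ckm and Ckmt2 each overlap an antisense gene on the opposite strand, and no source used here says whether counting was by strand. Both partners were low, with at most 7.24 CPM for A930016O22Rik beside Ckm and at most 2.22 CPM for 1700119I11Rik beside Ckmt2.

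The deposited values are estimated counts, 110803307 to 154003318 per library, and 1 CPM stands for 121 to 146 of them. Setanaxib replicate 3 stood apart. Its summed atrial markers (Myl7, Myl4 and Nppa of a list of 5) reached 2914 CPM, where the other 5 libraries held 66.5 to 568, and its 8 fat markers 146 CPM, where the others held 8.92 to 13.9. Its 10 markers of heart muscle cells summed to 35380 CPM against 46170 to 51500 CPM, and it had the lowest share of counts from mitochondrial genome genes, 20.5% against 23.5 to 30.0%. Results on the creatine genes are therefore given with and without this library. The cardiac myosin Myh6 was at 16260 to 20761 CPM in the 6 libraries, while 8 skeletal muscle markers besides Ckm summed to 0.256 to 0.707 CPM. Of these, Myh1, Myh2, Myh4 and Pvalb were at 0 in all 6, Mylpf was present in all 6 at 0.116 to 0.299 CPM and was higher in every setanaxib library, and Tnni2 was present in 5. In such bulk tissue, fewer cells of a type and less RNA per cell cannot be told apart. Each title carries its own number, but the labels do not say that each is a separate animal, so a p-value here reflects only how far these libraries vary, which may be technical.

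Per kilobase of coding sequence, Ckm was the most abundant of the 6 transcripts in vehicle hearts, at 1141 ± 84.5 CPM per kilobase (SD, n = 3). Ckmt2 followed at 629 ± 78.1, Slc6a8 at 105 ± 7.49 and Ckb at 28.7 ± 1.81 on the same scale. The synthesis enzymes came last, Gamt at 5.12 ± 0.521 and Gatm at 1.89 ± 0.425 CPM per kilobase. The order was the same in the setanaxib group, with means of 1003, 574, 85.4, 21.3, 3.78 and 1.31. Only the order of Ckm and Ckmt2 depended on the length used. Divided by annotated transcript length, which is 2742 bases for Ckm and 1486 for Ckmt2, the vehicle means were 476 ± 35.2 for Ckm and 532 ± 66.1 for Ckmt2 (SD, n = 3), whose ranges overlapped. Every other pair of neighbours was apart in all 6 libraries on both scales. Transcripts of the muscle kinases and the transporter were thus far above those of both synthesis enzymes. Ckmt1 was at 0 in 5 libraries and at 104 estimated counts (0.789 CPM) in setanaxib replicate 3, and did not pass the filter.

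On the TMM-normalised scale, every setanaxib library held less Ckb, Gatm and Gamt transcript than any vehicle library. The differences did not pass the test across all genes. That separation depends on the scaling, with TMM factors of 1.19 for setanaxib replicate 3 and 0.949 for vehicle replicate 2. By plain share of the library total, setanaxib replicate 3 exceeded vehicle replicate 2 for all 3 genes. For Ckb these were 3685 of 110803307 and 4585 of 154003318 estimated counts. Ckm, Ckmt2 and Slc6a8 were near vehicle levels in setanaxib replicates 1 and 2 and low in replicate 3. edgeR called 0 of the 6 genes at an adjusted p of 0.05. It called 0.00488% of all genes tested, that is 1 of 20472. At an unadjusted p under 0.05 edgeR held 2 of the 6 genes, Ckb and Gamt, both lower, against 4.69% of all genes lower and 3.76% higher. DESeq2 and limma-voom also called 0 of the 6, with 2.9% of 16795 genes called by DESeq2 and 0% of 20472 by limma-voom. On the TMM-normalised scale the groups did not overlap, on the lower side, for 3 of the 6 (Ckb, Gatm and Gamt), against 9.46% of all genes. All 6 log2 fold changes were below 0, with a median of -0.36, where 48.4% of all genes were below 0 and their median was 0.01. Without setanaxib replicate 3 the median of the 6 was -0.27, and Ckm and Ckmt2 were above 0.

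**Figure D1:**
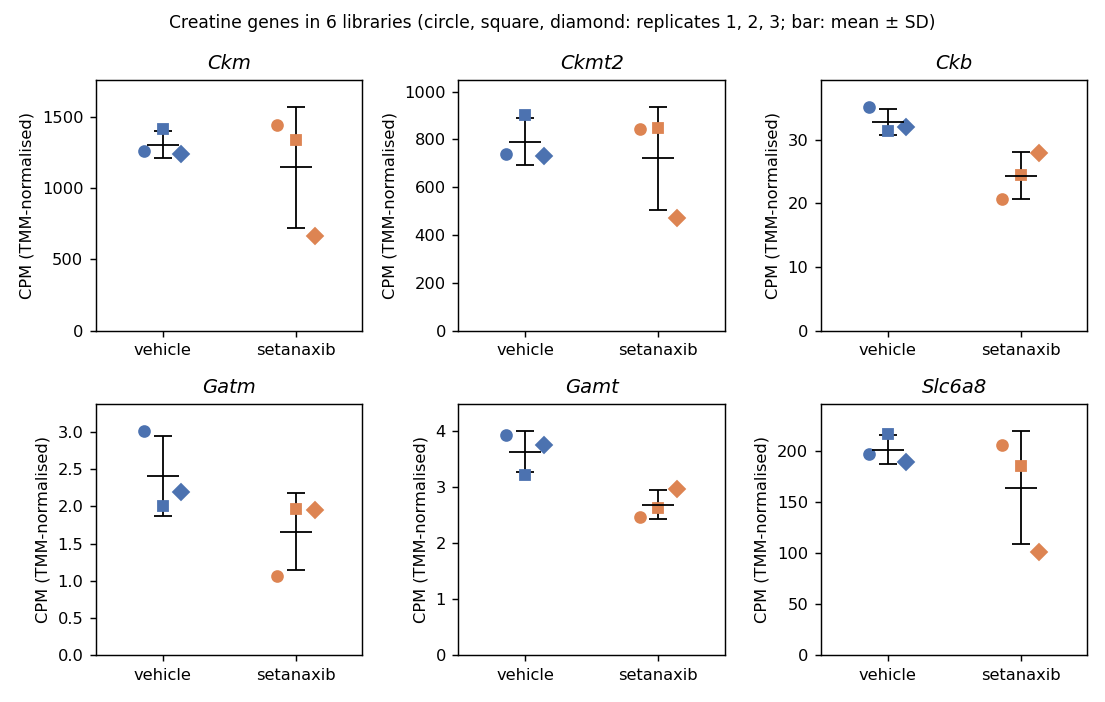
CPM (TMM-normalised, linear axis from 0) of the 6 creatine genes in each library, with vehicle in blue and setanaxib in orange, symbols for replicates 1 to 3, and bars for the mean ± SD (n = 3). For Ckb, Gatm and Gamt all setanaxib points lie below all vehicle points, though for Gatm the groups nearly meet. For Ckm, Ckmt2 and Slc6a8 only setanaxib replicate 3 lies far below the rest.

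Ckm, the muscle-type cytosolic kinase, measured 1258, 1415 and 1239 CPM in the vehicle libraries, in replicate order, while the setanaxib libraries held 1441, 1337 and 661 CPM. Setanaxib replicate 1 lay above all vehicle libraries, replicate 2 within their range and replicate 3 far below it. The log2 fold change of setanaxib minus vehicle was -0.19 (SE 0.29, 95% interval -0.89 to 0.52, edgeR adjusted p = 0.914). Without setanaxib replicate 3 it turned to 0.10 (SE 0.09, edgeR adjusted p = 0.675).

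Ckmt2, the mitochondrial kinase of striated muscle, took a like course. Vehicle libraries held 737, 904 and 731 CPM, and setanaxib libraries 844, 848 and 472 CPM. Setanaxib replicates 1 and 2 lay within the vehicle range and replicate 3 below it. Its log2 fold change was -0.13 (SE 0.24, 95% interval -0.72 to 0.46, edgeR adjusted p = 0.931), and 0.10 (SE 0.11, edgeR adjusted p = 0.731) without setanaxib replicate 3. The intervals of both muscle kinases allow changes in either direction, and do not show that the drug left them unaltered.

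Ckb, the brain-type subunit, measured 35.2, 31.4 and 31.9 CPM after vehicle, compared to 20.7, 24.5 and 28.0 CPM after setanaxib. All 3 setanaxib libraries were lower than all 3 vehicle libraries, and setanaxib replicate 3 was the nearest to them. The setanaxib mean corresponded to 0.742 times the vehicle level, a log2 fold change of -0.43 (SE 0.13, 95% interval -0.75 to -0.11). By edgeR the unadjusted p was 0.0157, and the adjusted p was 0.464. DESeq2 gave an adjusted p of 0.0759, and limma-voom 0.411. Leaving out setanaxib replicate 3 moved the log2 fold change to -0.54 (SE 0.11, edgeR adjusted p = 0.186).

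Gamt, the methyltransferase of the last synthesis step, measured 3.92, 3.21 and 3.75 CPM after vehicle, compared to 2.45, 2.62 and 2.96 CPM after setanaxib. These levels rest on 312 to 510 estimated counts per library, and again no setanaxib library reached the lowest vehicle library. The log2 fold change was -0.44 (SE 0.16, 95% interval -0.83 to -0.04, edgeR adjusted p = 0.548), with an unadjusted edgeR p of 0.0359. It was -0.51 (SE 0.16, edgeR adjusted p = 0.303) without setanaxib replicate 3.

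Gatm, the amidinotransferase that starts the pathway, was the lowest of the 6. Vehicle libraries held 3.02, 2.00 and 2.20 CPM, and setanaxib libraries 1.06, 1.96 and 1.95 CPM, on 135 to 366 estimated counts. The groups did not overlap, but the highest setanaxib library and the lowest vehicle library nearly met, and setanaxib replicate 1 was far below the rest. The log2 fold change was -0.54 (SE 0.31, 95% interval -1.29 to 0.22, edgeR adjusted p = 0.700). Without setanaxib replicate 1 it was -0.30 (SE 0.23, edgeR adjusted p = 0.701), and without setanaxib replicate 3 it was -0.67 (SE 0.35, edgeR adjusted p = 0.442).

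The low Gatm and Gamt levels were read beside markers of the organs that make creatine. Of 5 kidney markers, Umod, Slc34a1, Slc22a6 and Kap were at 0 in all 6 libraries and Nphs1 was at 0.274 to 0.346 CPM. Of 5 pancreas markers, Prss2, Cpa1, Pnlip and Amy2b were at 0 throughout and Cela2a was at 0.132 and 0.134 CPM in vehicle and setanaxib replicate 1 and at 0 elsewhere. The 5 liver markers summed to 26.9, 52.6 and 5.04 CPM in the vehicle libraries and to 1.60, 7.21 and 112 CPM in the setanaxib libraries, and differed among themselves. Alb measured 21.1, 43.3 and 0.279 CPM after vehicle, compared to 0.920, 5.86 and 0 CPM after setanaxib. Cyp2e1 instead stood at 112 CPM in setanaxib replicate 3 and far lower in the other 5 libraries (0 to 2.79 CPM in 4 of them). Mean Alb was 21.6 CPM with vehicle and 2.26 CPM with setanaxib, lower as for Gamt and Gatm, but its groups overlapped. Its vehicle replicate 3 lay below setanaxib replicates 1 and 2. The log2 fold change of Alb was -3.25 (SE 1.99, edgeR adjusted p = 0.723). Within the vehicle group, Alb was highest in replicate 2, where Gamt and Gatm were lowest. The part of liver RNA in their values was not tested.

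Slc6a8, the route by which heart muscle takes up creatine, measured 197, 217 and 189 CPM after vehicle, compared to 206, 185 and 101 CPM after setanaxib. Setanaxib replicate 1 lay within the vehicle range, replicate 2 just under it and replicate 3 far under it. The log2 fold change was -0.29 (SE 0.26, 95% interval -0.93 to 0.34, edgeR adjusted p = 0.824). Without setanaxib replicate 3 it was -0.04 (SE 0.09, edgeR adjusted p = 0.890).

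**Figure D2:**
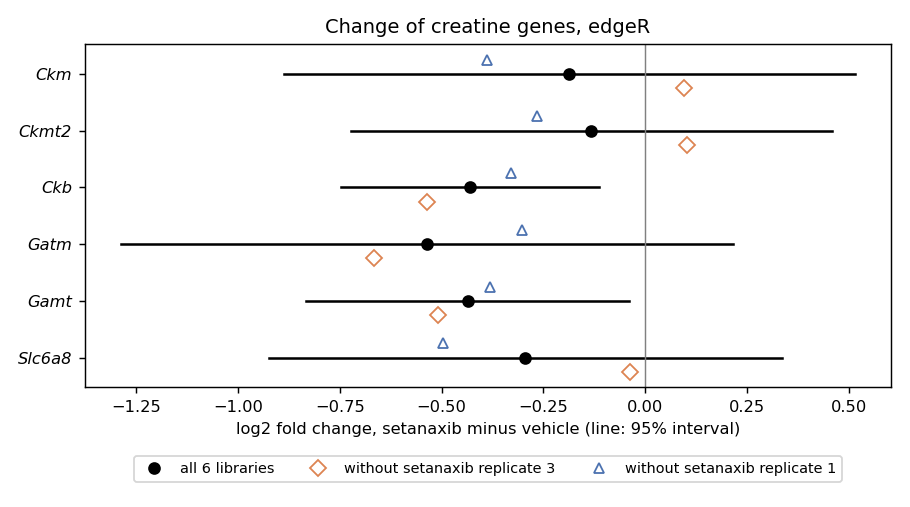
Log2 fold change of each creatine gene, setanaxib minus vehicle, from edgeR: filled circles with 95% intervals for all 6 libraries, open triangles without setanaxib replicate 1 and open diamonds without setanaxib replicate 3. Ckm and Ckmt2 cross to 0.10 without setanaxib replicate 3. Ckb, Gatm, Gamt and Slc6a8 stay below 0 under both, with Slc6a8 at -0.04 without setanaxib replicate 3.

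The 6 genes thus split into 2 courses over the libraries. In setanaxib replicate 3, Ckm, Ckmt2 and Slc6a8 were at 50.7%, 59.7% and 50.1% of their vehicle means, and Ckb, Gatm and Gamt at 85.1%, 81.1% and 81.7%. Setanaxib replicate 1 was the reverse, with Ckm, Ckmt2 and Slc6a8 at 110.5%, 107% and 102% and Ckb, Gatm and Gamt at 62.9%, 44.2% and 67.7%. Ratios of 2 genes within a library, which do not depend on how libraries are scaled, showed the same split. Among all 15 pairs, the log2 ratio of Ckm to Slc6a8 varied least, from 2.67 to 2.85, although each gene alone spanned 1.13 and 1.11 on the log2 scale. Ckb to Gamt came next, from 3.07 to 3.29, where Ckb alone spanned 0.77 and Gamt 0.67. Gatm, which alone spanned 1.51, was less steady, with a span of 0.74 against Ckb and 0.83 against Gamt. Against Ckmt2, Slc6a8 and Ckm its log2 ratio spanned 1.72, 1.91 and 2.0. Ckm and Slc6a8 thus kept a nearly steady ratio from library to library, and so did Ckb and Gamt. These pairs were singled out after their values were seen and carry no test.

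**Figure D3:**
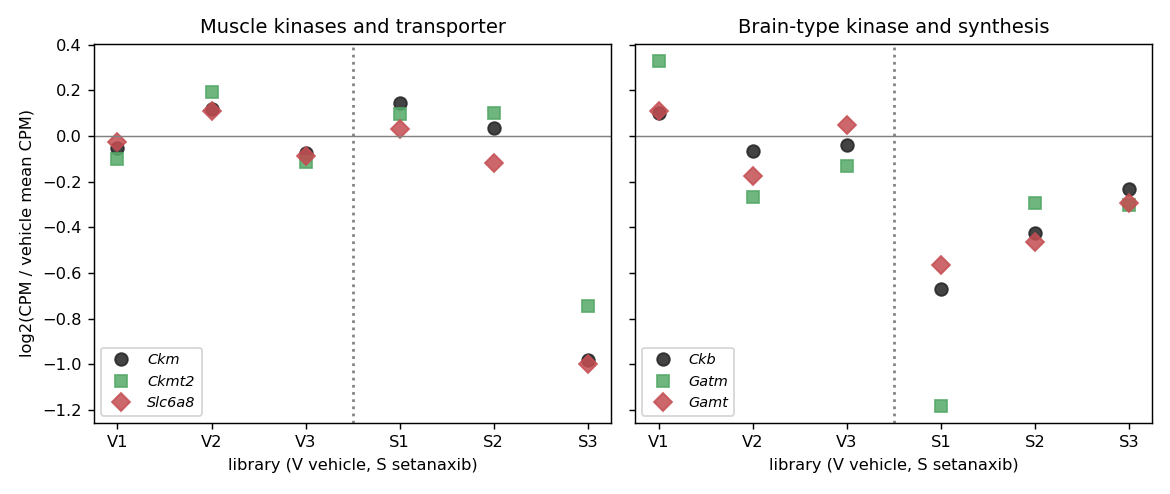
Log2 of CPM over the vehicle mean CPM for each gene in each library (V1 to V3 vehicle, S1 to S3 setanaxib), with the muscle kinases and the transporter on the left and Ckb, Gatm and Gamt on the right. On the left S1 and S2 lie near the vehicle libraries and S3 far below them, with Ckm at -0.98 and Ckmt2 at -0.74. On the right all 3 setanaxib libraries lie below 0, with S1 lowest.

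Ratios between the forms of the enzyme and between synthesis and uptake were compared with exact two-sided permutation tests, which with 3 libraries against 3 cannot go below 0.1. Ckb made up 2.80%, 2.22% and 2.58% of the Ckm level with vehicle, and 1.43%, 1.83% and 4.23% with setanaxib. Both genes have 1143 coding bases, so this ratio also holds per coding length. By annotated transcript length, 1472 bases for Ckb and 2742 for Ckm, it was higher, with vehicle means of 22.3 and 476 CPM per kilobase. The order of the libraries does not depend on the length used. Setanaxib replicates 1 and 2 thus lay below every vehicle library and replicate 3 above every one, and the mean log2 ratio differed by -0.18 (exact permutation p = 0.8). Ckmt2 relative to Ckm was at 58.6%, 63.9% and 59.0% with vehicle and 58.6%, 63.4% and 71.5% with setanaxib (log2 difference 0.09, exact permutation p = 0.6). The log2 ratio of Gatm to Slc6a8, synthesis over uptake, averaged -6.41 ± 0.366 and -6.62 ± 0.954 (SD, n = 3, exact permutation p = 0.8). That of Gatm to Gamt averaged -0.61 ± 0.207 and -0.74 ± 0.413 (SD, n = 3, exact permutation p = 0.8). Adjusted over these 4 ratios, every p was 0.8. Without setanaxib replicate 3 the Ckb to Ckm and Gatm to Slc6a8 differences moved to -0.64 and -0.67, and without setanaxib replicate 1 they turned to 0.14 and 0.28.

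Markers of several cell types differed between the same libraries. In setanaxib replicate 3 several abundant heart muscle transcripts were as low as the muscle kinases: Actc1, Myl3, Myl2 and Mb were at 44.4%, 45.4%, 52.3% and 55.3% of their vehicle means. Others were not, with Myh6 at 92.2%, Tnnt2 at 81.3% and Ryr2 at 105%. Of the 10 heart muscle markers, 6 had a log2 fold change below 0, with a median of -0.12, and 0.06 without that library. On the side of Ckb and the synthesis genes, all 8 fibroblast markers were below 0 (median -0.67), and their sum was 1062 to 1415 CPM with vehicle and 624, 830 and 1055 CPM in setanaxib replicates 1, 2 and 3. Within the setanaxib group, Ckb too was lowest in replicate 1 and highest in replicate 3, as were the summed nerve and glia markers. Macrophage and endothelial sums were also lowest in replicate 1, but highest in replicate 2. In vehicle replicates 1, 2 and 3 the fibroblast sums were 1413, 1062 and 1415 CPM, and Ckb was at 35.2, 31.4 and 31.9 CPM. Macrophage markers summed to 262 to 332 CPM and 161 to 205 CPM, with 7 of 8 below 0, and smooth muscle and pericyte markers to 794 to 970 CPM and 632 to 887 CPM, with 6 of 8 below 0. Endothelial markers summed to 722 to 805 CPM with vehicle and 548 to 709 CPM with setanaxib, with 6 of 7 below 0. edgeR called none of these markers. DESeq2, which called 2.9% of all genes, called 5 fibroblast markers, 4 macrophage markers, 1 smooth muscle and pericyte marker (Notch3) and 1 heart muscle marker (Nppb), all lower. Nerve and glia markers summed to 11.5 to 15.3 CPM with vehicle and to 6.27, 9.08 and 33.1 CPM with setanaxib. The part of these cells in the creatine gene values was not tested.

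The genes closest to each member in course over the 6 libraries were drawn from up to 3476 transcripts with a mean log2 CPM of at least 5. For Slc6a8 they were Dynll2, the myosin light chain gene Myl3 and the myoglobin gene Mb (Pearson r 0.998, 0.997 and 0.997). For Ckm they were Dnaja2, Ppm1b and Arhgef6 (r 0.997, 0.997 and 0.996), and for Ckmt2 Fbxw5, Tmem143 and Asb8 (r 0.997, 0.996 and 0.996). Such values were common on that side, as 17.4%, 16.9% and 15% of the transcripts had r above 0.9 with Ckm, Ckmt2 and Slc6a8. For Ckb they were the collagens Col3a1 and Col1a2 and the junction protein gene Jcad (r 0.996, 0.979 and 0.990), with 2.82% of transcripts above 0.9. For Gamt they were the matrix genes Svep1 and Col6a2 and Igfbp7 (r 0.990, 0.985 and 0.983), and for Gatm Zfp638, Prrx1 and Add1 (r 0.982 and 0.979 for the first pair). These likenesses describe 6 libraries that share 2 treatment groups, and carry no test.

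Genes that feed creatine synthesis with arginine, glycine and methyl groups were on both sides of 0, where Gatm and Gamt were both lower. Of 13 tested, 7 were higher and 6 lower (median log2 fold change 0.04, and -0.05 without setanaxib replicate 3), and edgeR called 0. The groups did not overlap for 4 higher and 1 lower member, against 8.11% and 9.46% of all genes. Slc7a1, the main arginine importer, measured 66.7, 73.0 and 69.0 CPM after vehicle, compared to 93.4, 131 and 87.0 CPM after setanaxib. Every setanaxib library was higher, and the log2 fold change was 0.58 (SE 0.17, edgeR adjusted p = 0.451). Ass1, an enzyme of arginine synthesis, had one of -0.53 (SE 0.21, edgeR adjusted p = 0.580), Gnmt, which spends S-adenosylmethionine on glycine, one of 0.45 (SE 0.17, edgeR adjusted p = 0.548), and the serine enzyme Psph one of 0.42 (SE 0.18, edgeR adjusted p = 0.616).

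Partners of creatine kinase in moving high-energy phosphate, the adenylate kinases, AMP deaminases, nucleotide carriers and outer membrane channels, were also on both sides of 0. Of 14 tested, 9 were higher and 5 lower, with a median log2 fold change of 0.03 (0.13 without setanaxib replicate 3) and 0 called by edgeR. Among those with the lowest p, Ampd3 was at -0.18 (SE 0.08), Ak4 at -0.23 (SE 0.18) and Ak3 at 0.15 (SE 0.14), with edgeR adjusted p of 0.623 to 0.825. Ampd1, the skeletal muscle form, was singled out after its values were seen: it was at 2.83 CPM in setanaxib replicate 1 and at 0 in the other 5 libraries.

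Transcription factors and coactivators known for muscle and mitochondrial gene programmes were also mixed. Of 12 tested, 7 were higher and 5 lower (median 0.04, and 0.09 without setanaxib replicate 3), with 0 called. Ppargc1a, the coactivator of mitochondrial biogenesis, had a log2 fold change of 0.28 (SE 0.12), Mef2a of 0.15 (SE 0.08), Ppara of 0.25 (SE 0.15) and the cardiac factor Gata4 of -0.38 (SE 0.22), all with edgeR adjusted p of 0.622 to 0.724. Among 10 tested consumers of ATP and M-band proteins, where muscle-type kinase is anchored, 5 were higher and 5 lower (median -0.01, and 0.02 without setanaxib replicate 3), with 0 called. Myom1, a myomesin of the M-band, was at -0.30 on the log2 fold change scale (SE 0.21, edgeR adjusted p = 0.768) and the calcium pump Atp2a2 one of 0.23 (SE 0.16, edgeR adjusted p = 0.773). Myh7 and the sodium pump subunit Atp1b1 were at -0.49 (SE 0.42) and -0.07 (SE 0.10).

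**Figure D4:**
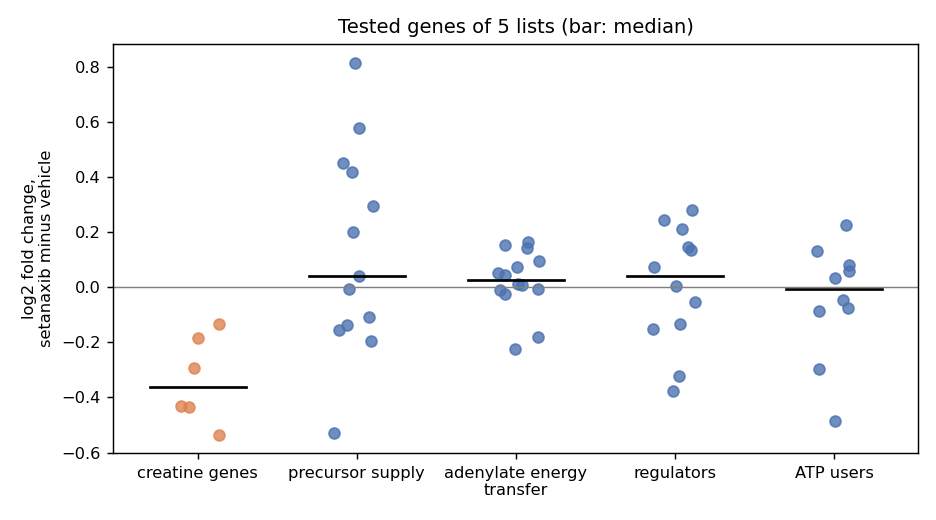
Log2 fold change, setanaxib minus vehicle, of each tested gene in 5 lists, with the list median as a bar. The 6 creatine genes (orange) all lie below 0 with a median of -0.36, and the 4 companion lists (blue) lie on both sides of 0 with medians from -0.01 to 0.04. In fits without setanaxib replicate 3, not drawn here, Ckm and Ckmt2 are at 0.10 and Slc6a8 is at -0.04.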

How the data were processed

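The authors deposited 1 table of estimated counts per gene for 6 libraries of heart RNA, already whole, so that rounding changed nothing, and with no scaling across libraries. The tools listed, with no role for each, are DESeq2 1.42.0, featureCounts 2.0.1, STAR 2.5.4b and FastQC 0.11.9, and the build is GRCm39, per the submitters' processing notes. Per the file headers, the names have the form of StringTie's count script. The design had assumed raw counts, and the same tests were kept. In R 4.3.3, genes were kept by filterByExpr (minimum count 10), scaled by TMM and tested with edgeR 4.0.16 (quasi-likelihood F test, two-sided, all 6 libraries, no covariate, Benjamini-Hochberg over 20472 genes, threshold 0.05), after a test on simulated data. SEs and 95% intervals come from that fit, and CPM values are TMM-normalised. DESeq2 1.42.0, limma-voom 3.58.1, other scalings, no filter, no mitochondrial genome genes and each library left out were alternatives. Ratios were tested by exact permutation.

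The members and lists were chosen with earlier results of these data known. All 6 members are named, with the 4 genes of lowest p per companion list and, for likeness, the 3 genes of highest r over the libraries, predicted genes aside. A gene that this rule names is not reported here. Of 50385 gene identifiers, 50110 were found in the names table, including all 6 members. Lengths come from GENCODE M21 and promoters from RefSeq, both on GRCm38. List genes without a row (Arg2, for example) were not analysed here. At 1 CPM a value rests on 121 to 146 estimated counts, and SEs come from the spread between libraries.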

Additional observations from a re-analysis of the deposited data

How the results depend on the processing

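Across 12 alternatives each, Ckb, Gatm, Gamt and Slc6a8 kept their direction and no creatine gene was called. Whether groups overlapped was not followed over these alternatives. The adjusted p of Ckb ranged from 0.0759 (DESeq2) to 0.994. Over the fits without 1 library, log2 fold changes ran from -0.39 to 0.10 for Ckm, from -0.27 to 0.10 for Ckmt2, from -0.54 to -0.33 for Ckb, from -0.68 to -0.30 for Gatm, from -0.52 to -0.38 for Gamt and from -0.50 to -0.04 for Slc6a8. Ckm and Ckmt2 turned upward only without setanaxib replicate 3. The differences in log2 ratio ran from -0.64 to 0.14 for Ckb over Ckm, from 0.01 to 0.16 for Ckmt2 over Ckm, from -0.67 to 0.28 for Gatm over Slc6a8 and from -0.30 to 0.10 for Gatm over Gamt. Signs of 3 of these 4 turned only without setanaxib replicate 1. The count of genes called was 1 by edgeR with all libraries, 487 by DESeq2, 0 by limma-voom, and 0 to 1 without 1 library (0 without vehicle replicate 1, 2 or 3). edgeR had 1731 genes at an unadjusted p under 0.05 with all libraries and limma-voom 1962. Medians of companion lists without setanaxib replicate 3 were chosen after seeing the data. No paired analysis was possible because the replicate numbers follow record order and the labels pair no libraries.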
